A study of Mus musculus with 321 samples.

Results

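Dense runs of open chromatin in CD4+CD8+ double-positive (DP) thymocytes were described, each run taken as one unit. The 4 deposited ATAC-seq peak lists of DP thymocytes, which mark open chromatin, were merged wherever peaks shared at least 1 bp, giving 31628 regions. Of these, 21952 were in both wild-type (WT) lists, and 13240 of those had a midpoint more than 1 kb from either end of any protein-coding gene and were called distal. Neighbouring distal regions no more than 12.5 kb apart were chained, and chains of at least 3 regions were kept. The rule left 512 chains with 1762 regions, 13.3% of the distal regions. The other distal regions stood alone (8402 single regions) or in 1538 pairs (3076 regions). The choice rested on the WT lists themselves, so membership in those lists is a description and no test was run on the contrast between the genotypes.

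The series examined the transcription factor Tcf-1 and the chromatin of developing T cells. Tcf-1 KO DP thymocytes carried the genotype TCF-1-/- deltaVII and gave 2 lists. The WT DP thymocytes were labelled C56BL/6 (WT) and also gave 2 lists. Both were sorted from animals by flow cytometry as CD4+CD8+ T cells, with no age or sex used here. NIH3T3, a mouse fibroblast line of NIH/Swiss origin at passages 8-12, carried either a Tcf-1 retrovirus (Tcf-1 RV, 4 ATAC-seq lists) or an empty retrovirus (Empty RV, 4 lists). H3K27me3 and H3K9me3, marks of repressed chromatin, were mapped in NIH3T3 cells with 2 lists each, and 1 pooled list of Tcf-1 ChIP-seq summits completed the files. Nothing in the labels ties replicates to different animals or cultures, so their spread, which the p-values measure, may be technical. File names of the NIH3T3 ATAC-seq replicates also carry a day tag, 2 or 4, in each arm. The main tests did not block on this tag, so the spread may include a difference between days.

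Tcf-1, encoded by Tcf7, is an HMG-box factor that binds DNA through a short AT-rich core and acts downstream of Notch early in T cell development. DP thymocytes are the stage at which cells express both coreceptors, rearrange the T cell receptor alpha locus and are selected on it. Enhancers of genes that define a cell type often lie in clusters over and around the gene, and stitching neighbouring elements into one unit is a common way to find such clusters. The deposited ATAC-seq lists hold positions and no signal height, so the chains are clusters by spacing and cannot be ranked by signal.

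A region was called lost where both WT lists and neither KO list held it, held by a KO list where a peak of that list overlapped it, and intermediate where exactly 1 KO list held it. The KO lists were shorter, with 11171 and 12209 placed peaks, against 23249 and 30985 in the WT lists. When every DP list was cut to its widest peaks at equal length, 12 chains with 36 regions were left and 27.8% of their regions were lost. That cut changed list length and peak width together, and which of these moved the level of loss was not tested. Gene ends of the T cell receptor and signalling list were open for 11 and 13 of 24 genes in the KO lists, against 19 and 20 in the WT lists. Those of coreceptor and surface genes were open for 3 and 5 of 19 genes in the KO lists, against 13 and 16 in the WT lists, and those of housekeeping genes for 11 and 12 of 15 in the KO lists, against 12 and 12 in the WT lists. Over all gene-end regions of both WT lists, 16.2% were lost. Tcf7, the targeted gene, had no peak within 1 kb of a gene end in any KO or WT list, so the lists do not check the genotype there. For Cd4 and Cd8a, which encode the coreceptors that define the stage, a peak within 1 kb of a gene end was in neither KO list and in both WT lists. For Cd8b1, the other CD8 chain, such a peak was in KO replicate 2 and WT replicate 2 alone, and for Cd28 and Cd24a in both KO and both WT lists. B cell markers had open ends for 1 and 1 of 14 genes in the KO lists and for 3 and 4 in the WT lists. Myeloid markers had open ends for 1 and 0 of 13 genes in the KO lists and for 3 and 5 in the WT lists, and fibroblast genes for 0 and 0 of 15 in the KO lists and for 3 and 4 in the WT lists. The part of cell composition in the losses was not tested, and in bulk ATAC-seq fewer cells with an open region and a region less open in each cell cannot be told apart.

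Sequences are shown for chain regions that overlap a listed promoter or a microRNA, because these are the chain elements whose sequence was at hand. Promoter windows run from 250 bases before to 50 bases after a start site and are RefSeq sequences of build GRCm38.p6, written 5′ to 3′ on the gene's strand. The Trat1 window, chr16:48772013-48772312 on the minus strand, lay wholly in a lost region. The Arpp21 window, chr9:112217302-112217601 on the minus strand, lay wholly in a region that both KO lists held. The Dgkz windows were chosen after their values were seen, because one chain over 1 gene held both calls: the window at chr2:91950299-91950598 overlapped a lost region by 268 bp, and the window at chr2:91963514-91963813 overlapped a region of both KO lists by 273 bp, both on the minus strand. Capitals mark matches to 3 short motifs on either strand. The Tcf-1 core was searched as TCAAAG, which reads CTTTGA on the other strand. The RUNX core was searched as TGTGGT, which reads ACCACA on the other strand. The ETS core was searched as CAGGAAG, which reads CTTCCTG on the other strand.
Trat1 promoter, lost: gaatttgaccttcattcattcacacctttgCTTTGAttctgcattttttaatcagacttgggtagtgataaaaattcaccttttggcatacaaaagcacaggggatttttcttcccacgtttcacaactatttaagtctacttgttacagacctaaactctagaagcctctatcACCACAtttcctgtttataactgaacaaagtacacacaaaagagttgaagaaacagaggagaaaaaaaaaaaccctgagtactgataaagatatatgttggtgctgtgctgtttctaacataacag
Arpp21 promoter, in both KO lists: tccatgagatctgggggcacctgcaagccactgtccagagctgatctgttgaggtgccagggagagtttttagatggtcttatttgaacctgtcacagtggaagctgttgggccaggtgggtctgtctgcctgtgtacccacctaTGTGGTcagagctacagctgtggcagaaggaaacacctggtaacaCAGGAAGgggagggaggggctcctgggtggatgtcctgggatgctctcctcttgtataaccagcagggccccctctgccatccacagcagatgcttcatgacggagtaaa
Dgkz promoter, lost: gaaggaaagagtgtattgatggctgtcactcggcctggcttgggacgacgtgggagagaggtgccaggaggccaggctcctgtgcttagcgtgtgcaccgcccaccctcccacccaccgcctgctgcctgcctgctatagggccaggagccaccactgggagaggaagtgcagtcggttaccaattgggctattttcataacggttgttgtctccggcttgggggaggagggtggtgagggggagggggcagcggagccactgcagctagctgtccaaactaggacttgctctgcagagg
Dgkz promoter, in both KO lists: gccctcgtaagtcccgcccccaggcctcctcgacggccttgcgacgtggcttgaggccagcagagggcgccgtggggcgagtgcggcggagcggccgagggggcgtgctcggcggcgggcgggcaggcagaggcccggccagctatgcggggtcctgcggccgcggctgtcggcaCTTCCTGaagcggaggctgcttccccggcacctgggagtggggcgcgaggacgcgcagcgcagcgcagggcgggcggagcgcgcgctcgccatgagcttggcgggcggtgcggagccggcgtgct
The Trat1 window held the Tcf-1 core as CTTTGA and a RUNX core as ACCACA, the Arpp21 window held a RUNX and an ETS core, the second Dgkz window held an ETS core, and the first Dgkz window held none of these letters. Counting both strands, TCAAAG was in 10 of 53 promoters under lost chain regions (18.9%), in 10 of 91 under chain regions not lost (11%) and in 16% of all 32817 promoters. TGTGGT was in 17% of the promoters under lost chain regions, 13.2% of those under regions not lost and 16.8% of all. CAGGAAG was in 18.9%, 25.3% and 13.3% in the same order. The GC content of the printed windows was 35.3% for Trat1, 55.3% for Arpp21, and 61.7% and 77.7% for the lost and the held Dgkz window. Its median was 53.7% for promoters under lost chain regions, 64.3% for those under chain regions not lost and 52.7% over all promoters. A match is a run of letters only, and a missing match says nothing of binding.

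Mir155 and Mir142 were singled out after their values were seen. The microRNA with a hairpin inside a lost chain region was Mir155, whose products act in lymphocyte activation. Its chain, chr16:84702763-84714395, had 2 of 3 regions lost, and the hairpin lay in the lost region chr16:84714018-84714395. The remaining region, 828 bp wide, was in both KO lists and in all 8 NIH3T3 lists. Mir142, a microRNA gene of blood cells, lay 1160 bp beyond the end of a chain at chr11:87745072-87755704 with 3 of 4 regions lost. The mature RNAs of both genes are given with the seed, bases 2 to 8, in capitals. No seed is shared among them.
mmu-miR-155-5p: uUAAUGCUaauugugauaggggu
mmu-miR-155-3p: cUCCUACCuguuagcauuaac
mmu-miR-142a-5p: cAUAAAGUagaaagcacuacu
mmu-miR-142a-3p: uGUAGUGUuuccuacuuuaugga

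Most chains were short. There were 354 chains of 3 regions, 111 of 4, 31 of 5, 13 of 6, 1 of 7 and 2 of 8. A chain spanned 1.96 to 60.5 kb with a median of 14.9 kb, and over all chains together 8.96% of the summed span was open. The gap between neighbours had a median of 6294 bp, the gaps nearest the limit were 12497 bp inside it and 12522 bp outside it, and all chains covered 8.23 Mb together. Of the 512 chains, 329 lay over a protein-coding gene, 112 had one within 50 kb and 71 had none that near. The chains carried 440 genes, 2.01% of the 21887 protein-coding genes. Genes that a chain overlapped were long, with a median length of 78.3 kb against 17.2 kb for all protein-coding genes.

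Of the 1762 chain regions, 1163 were lost, 66% (Wilson 95% interval 63.8% to 68.2%), beside 65.1% of all distal regions and 45.7% of all regions of both WT lists. The share in chains was therefore near the background of distal regions. It was 65.1% for single distal regions (64.1% to 66.1%) and 64.6% for pairs (62.9% to 66.3%). KO replicate 1 held 420 chain regions (23.8%) and KO replicate 2 held 530 (30.1%), with 351 held by both (19.9%, beside 21.5% of all distal regions) and 248 held by 1 of the KO lists (14.1%). Among single distal regions the corresponding shares were 25.8%, 31.1%, 22% and 12.9%. The intervals account for counting error alone, and regions of 1 chain are not independent of each other.

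By length, 64.4% of regions were lost in chains of 3, 67.6% in chains of 4, 65.8% in chains of 5 and 76.2% in chains of 6 or more. The last class holds 16 chains with 101 regions, and its interval of 67.1% to 83.5% overlaps those of chains of 4 and 5, touches that of chains of 3 (upper limit 67.2%) and lies above those of single regions and pairs. No test was run on this difference. Chains of 3, just inside the limit of the rule, and pairs, just outside it, had 64.4% and 64.6% of regions lost.

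**Figure D1:**
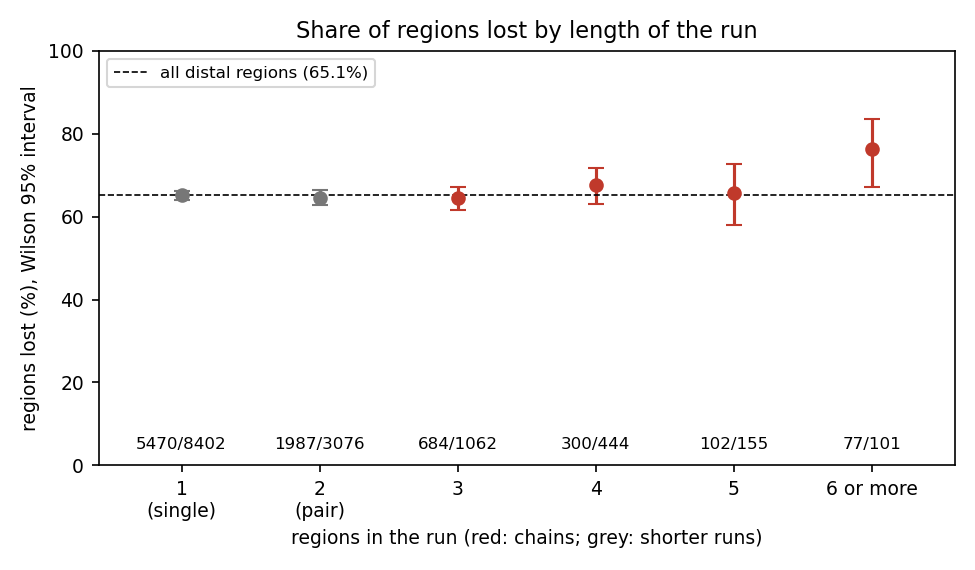
The share of regions lost in Tcf-1 KO thymocytes, in percent with Wilson 95% intervals, is plotted against the number of regions in the run, with chains in red, singles and pairs in grey and the share of all distal regions as a dashed line. Points for runs of 1 to 5 regions lie between 64.4% and 67.6%, and the point for 6 or more lies at 76.2% with 77 of 101 regions lost.

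Chains were mostly mixed. In 368 chains (71.9%) some regions were lost and others not, in 125 (24.4%) every region was lost, and in 19 (3.71%) none was. More than 50% of the regions were lost in 355 chains (69.3%). Of the chains of 3, 16 had 0 regions lost, 90 had 1, 150 had 2 and 98 had 3. Of the chains of 4, 2 had 0 lost, 7 had 1, 34 had 2, 47 had 3 and 21 had 4. A region held by both KO lists was present in 269 chains. KO replicate 1 held at least 1 region in 311 chains and KO replicate 2 in 358.

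The share lost was similar after a lost and after a not-lost neighbour. Among 1250 pairs of neighbours in chains, 541 were both lost, 141 neither lost and 568 split. The region after a lost region was lost in 541 of 820 cases (66%, 62.7% to 69.1%), and the region after one not lost was lost in 289 of 430 (67.2%, 62.6% to 71.5%). Leaving out regions over promoters, these shares were 67.9% and 69.6%. Regions at the ends of a chain and regions inside it were both lost in 66%.

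**Figure D2:**
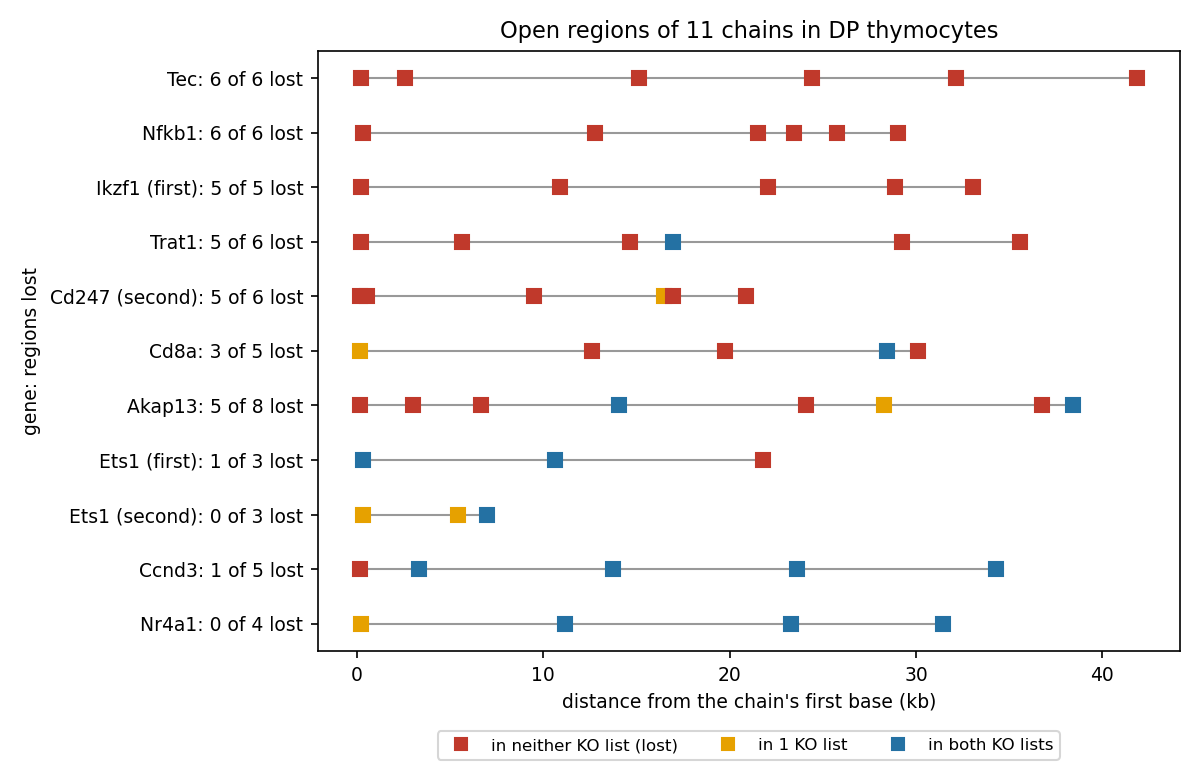
Each row is 1 chain, drawn to scale as distance in kb from its first base; squares mark region centres (not widths), red where neither KO list held the region (lost), yellow where 1 did and blue where both did. The chains of Tec, Nfkb1 and the first chain of Ikzf1 are red throughout, that of Nr4a1 holds no red square, and Trat1, Cd8a and Akap13 mix red and blue along 1 chain.

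Of the 12 chains with most regions, the longest ran 60.5 kb over Slc6a19 and Slc12a7, which encode an amino acid transporter and a potassium-chloride cotransporter, with 6 of 8 regions lost. Akap13, which encodes a kinase anchor protein, also had a chain of 8 regions: 5 were lost, 1 was intermediate and 2 were held by both KO lists. Bach1, a bZIP repressor gene, had a chain with 5 of 7 regions lost, and the remaining 2 were held by KO replicate 2 alone. A smaller Bach1 chain, outside these 12, lost 1 of 3. In Tec, which encodes a kinase of T cell receptor signalling, all 6 regions over 42.1 kb (chr5:72761218-72803299) were lost. Nfkb1, which encodes an NF-kappaB subunit, also lost 6 of 6, over 29.1 kb (chr3:135581498-135610635), and none of its regions was open in any NIH3T3 list. Among the other chains of 6 taken, Trat1 and Cfap20dc lost 5 each, Rbm38, Ppp1r16b and Dnttip2 lost 4 each, and Tiam1 and the chain over Fbxl18 and Actb lost 3 each. There were 13 chains of 6 and the longer spans were taken first. Of the 4 not taken, 1 lost 6 regions and 3 lost 5.

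Among chains that lost every region, the largest after Tec and Nfkb1 were a chain over BC035044 (6 regions), the first Ikzf1 chain (5), a chain over heavy-chain variable segments (5) and the Prkch chain (5). Prkch encodes protein kinase C eta, and its chain of 18.6 kb lay wholly in H3K27me3 islands of NIH3T3 cells. Of the 21 chains of 4 with every region lost, the 4 longest lay over Rftn1, a lipid raft gene, and Sdccag8, near Ankrd60, and over another stretch of heavy-chain variable segments. A second Sdccag8 chain was also lost whole, so 8 of 8 regions in the 2 chains of that gene were lost.

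The largest chain with no region lost lay on chromosome 14 (chr14:19415737-19419077), with 5 regions packed into 3.34 kb and no protein-coding gene within 50 kb. It lay wholly in both H3K27me3 and H3K9me3 islands, and each of its regions was open in some NIH3T3 list. Open regions filled 61.2% of its span, against 8.96% of all chain spans together. Whether reads map uniquely there was not tested, so its calls may not reflect open chromatin at this place. Nr4a1, an orphan nuclear receptor gene induced by T cell receptor signals, lost 0 of 4 regions over 31.7 kb: 3 were held by both KO lists and 1 by KO replicate 2 alone. All 4 Tnpo1 regions were held by KO replicate 2, and 1 of them by KO replicate 1. The other chains of this kind named by the same rule had 3 regions each, among them Jak1, a cytokine receptor kinase gene, and Tle5, a member of the Groucho-related corepressor family.

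Genes of the T cell receptor and its signalling had chains in 6 of 24 cases, with 22 of 29 regions lost (75.9%). Cd247, the receptor zeta chain, carried 2 chains with 2 of 3 and 5 of 6 regions lost. In the second, the region left over was in KO replicate 2 alone. Trat1, a transmembrane adaptor associated with the receptor, lost 5 of 6 regions over 35.7 kb, and a 518-bp region 16.7 kb from the chain's start was in both KO lists. Ptprc, the CD45 phosphatase, and Plcg1, the phospholipase of receptor signalling, lost 3 of 3 each. Prkcq, protein kinase C theta, lost 2 of 3. Sla, an adaptor that lowers receptor levels, lost 2 of 5, the smallest share in this list.

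At the T cell receptor beta locus a chain ran over the D, J and C segments (chr6:41532702-41558689), and 4 of 5 regions were lost. The region in both KO lists, chr6:41554165-41554976, was 812 bp wide, against 322 to 557 bp for the lost ones. Antigen receptor segments lay under 9 chains in all. Of these, 7 lay over heavy-chain variable segments on chromosome 12, and 5 of the 7 were covered wholly by H3K9me3 islands. A chain over alpha variable segments on chromosome 14 lost 1 of 3. Variable segments are a multigene family, and no source used here says how reads shared between copies were placed.

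Coreceptor and surface genes had chains in 4 of 19 cases, with 11 of 15 regions lost. The Cd8a chain, 1959 bp from the gene, lost 3 of 5 regions over 30.2 kb. Of the others there, 1 was in both KO lists and 1 in KO replicate 2 alone. Cd28, the costimulatory receptor, lost 3 of 3, Cd69, an early activation marker, lost 3 of 4, and Cd5, which dampens receptor signals, lost 2 of 3. In the same order, these chains lay 3675, 10885 and 1557 bp from the genes. Cytokine and homing receptors had chains in 3 of 22 cases, with 3 of 4 regions lost at Cxcr4, the receptor that keeps early thymocytes in the cortex, 2 of 3 at Il2ra and 1 of 3 at Il21r.

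T lineage transcription factors had 14 chains at 11 of 37 genes, with 32 of 46 regions lost (69.6%). Ikzf1, which encodes Ikaros, had 7 of 8 regions lost in 2 chains. Both of its promoter windows listed in the first chain overlapped lost regions, by 251 and 178 bp. The lost region under the first window had its midpoint 1041 bp from the gene's annotated end, just outside the 1 kb limit. The region left in the second chain, 802 bp wide, was in both KO lists. Tox lost 4 of 4, and Foxp1 and Elf1 lost 3 of 3 each. Fli1 had 5 of 6 lost in 2 chains, 1 over the gene and 1 lying 27335 bp from it. Bcl11b, a commitment factor, and Bach2 had 2 of 3 lost, and Gata3 had 2 of 4. Ets1 stood at the other end, with 1 of 6 lost in 2 chains, 3 regions in both KO lists and 2 in 1 KO list each. The chain nearest Tcf7 lay 26190 bp from the gene and lost 2 of 3 regions, while the middle region, 706 bp wide, was in both KO lists and held a Tcf-1 summit of NIH3T3 cells.

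Among genes of recombination and the pre-receptor stage, Bcl2l1, which encodes the survival factor Bcl-xL, lost 2 of 4. Dntt, which encodes terminal transferase, and Arpp21 lost 1 of 3 each. Ccnd3, the cyclin of thymocyte expansion, was the 1 gene of 18 in the Notch and Wnt list with a chain, and lost 1 of 5, with 4 regions in both KO lists. No list was tested. Over all 441 chains that carry a gene 66.2% of regions were lost, above the share at each gene named in this paragraph.

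B cell, myeloid and fibroblast lists had no chain, at 0 of 14, 0 of 13 and 0 of 15 genes, beside 2.01% of all protein-coding genes. In lists this short, 0 is near that share. A distal region within 50 kb was present for 13 B cell, 7 myeloid and 4 fibroblast genes. The NK and effector list had 1 chain near a gene in 16, at Klrb1c with 2 of 3 lost. Housekeeping genes had chains at 2 of 15, Actb with 3 of 6 and Ywhaz with 3 of 3 lost, and the Ywhaz chain lay 42089 bp away. Some genes carried several chains: 24 did, with Nfia and Pde4d at 3 chains each and 6 of 10 and 9 of 11 regions lost.

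Loss moved with the width of the WT peak. Distal regions were divided at mean WT peak widths of 286 and 398 bp into 3 classes of nearly equal size. Among chain regions 93.3% of the narrow class, 71.3% of the middle class and 33.2% of the wide class were lost, against 92.3%, 69.2% and 33.6% of single distal regions. The median width was 296.5 bp for lost chain regions and 439 bp for those not lost. Widths come from the WT lists that chose the regions, so these values are a description. Chain regions and single regions had nearly equal median widths, 333.5 and 333.8 bp.

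Loss also differed by promoter overlap. Of the chain regions, 123 overlapped a listed promoter, since a start site of an inner or non-coding transcript can lie far from a gene end, and 49 of them were lost (39.8%). With a protein-coding promoter 26 of 82 chain regions were lost (31.7%, 22.6% to 42.4%), against 135 of 874 (15.4%, 13.2% to 18%) among distal regions outside chains. With a non-coding promoter alone 56.1% of 41 chain regions were lost, against 41.9% outside. Without a promoter the shares were 68% and 69.9%. In the 110 chains with a promoter region, 184 of the 272 other regions were lost (67.6%). The spans of 22 chains also enclosed 25 gene-end regions, which are no members, and 10 of these were lost (40%, 23.4% to 59.3%), against 16.1% of gene-end regions outside chain spans and 16.2% of all gene-end regions.

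**Figure D3:**
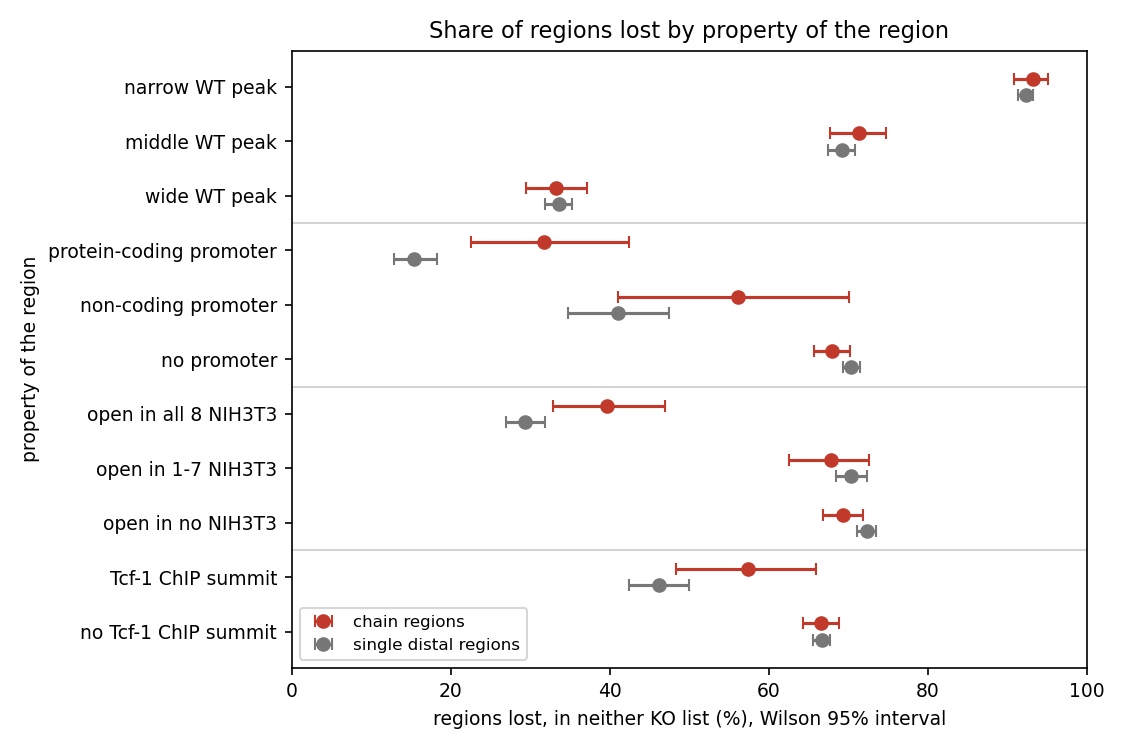
The percent of regions lost, with Wilson 95% intervals, is shown for chain regions (red, upper point) and single distal regions (grey, lower point) split by WT peak width, promoter overlap, openness in the 8 NIH3T3 lists and presence of a Tcf-1 summit of NIH3T3 cells. In both kinds of region the share is highest for narrow WT peaks, 93.3% in chains and 92.3% in singles, and lowest for those with a protein-coding promoter, 31.7% in chains and 15.4% in singles.

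Chain regions were mostly closed in fibroblasts. Of 1762, 1252 were open in none of the 8 NIH3T3 lists (71.1%), against 59.1% of single distal regions, and 184 were open in all 8 (10.4%), against 15.7%. Of the chain regions open in all 8 lists, 73 were lost in KO thymocytes (39.7%), against 67.8% of those open in 1 to 7 lists and 69.4% of those open in none. In single regions the shares were 29.3%, 70.4% and 72.3%. In 194 chains no region was open in any NIH3T3 list, and in 29 every region was open in some.

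Whether Tcf-1 opens the chain regions in fibroblasts was asked over the NIH3T3 libraries, which the rule did not use. The Tcf-1 RV lists held 20.3%, 20.1%, 18.8% and 25.4% of the chain regions in replicates 1 to 4, and the Empty RV lists 11%, 17.4%, 22% and 25.3%. The groups overlapped, and the lowest value was Empty RV replicate 1, which also had the shortest list, 22778 peaks. The mean was 21.2% ± 2.92 with Tcf-1 RV and 18.9% ± 6.22 with Empty RV (SD, n = 4 each), a difference of 2.27 percentage points, higher in 3 of 4 same-numbered pairs (exact two-sided permutation test, p = 0.600, adjusted p = 0.838 over 4 tests). Single distal regions averaged 30.3% ± 4.70 with Tcf-1 RV and 27.8% ± 8.75 with Empty RV (exact permutation p = 0.629, adjusted p = 0.838, higher in 3 of 4 pairs). The difference between chain and single regions was -9.14 ± 1.81 points with Tcf-1 RV and -8.88 ± 2.55 points with Empty RV (exact permutation p = 0.914, adjusted p = 0.914). Of each library's own peaks, 1.26% ± 0.0708 with Tcf-1 RV and 1.30% ± 0.0524 with Empty RV lay in chain spans, higher with Tcf-1 RV in 1 of 4 pairs (exact permutation p = 0.400, adjusted p = 0.838). With 4 libraries against 4 the smallest possible p is 0.0286. Reached in 1 test alone, it would not stay below 0.05 after adjustment over 4 tests.

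The file names tag replicates 1 and 2 as day 2 and replicates 3 and 4 as day 4. Within the day 2 tag the chain regions open in Tcf-1 RV minus Empty RV libraries differed by 6.07 points, and within the day 4 tag by -1.53 points. For single regions these values were 7.87 and -2.81 points. For chain minus single they were -1.80 and 1.28 points, and for peaks in spans -0.0885 and 0.00982 percent. The sign of these mean differences thus differed between the tags in all 4 measures. Within the day 4 tag, however, same-numbered pairs 3 and 4 differed in sign in each measure. For chain regions they were -3.18 and 0.114 points, and pair 4 had the sign of the day 2 tag in each measure. Each tag holds 2 libraries an arm and was not tested alone.

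**Figure D4:**
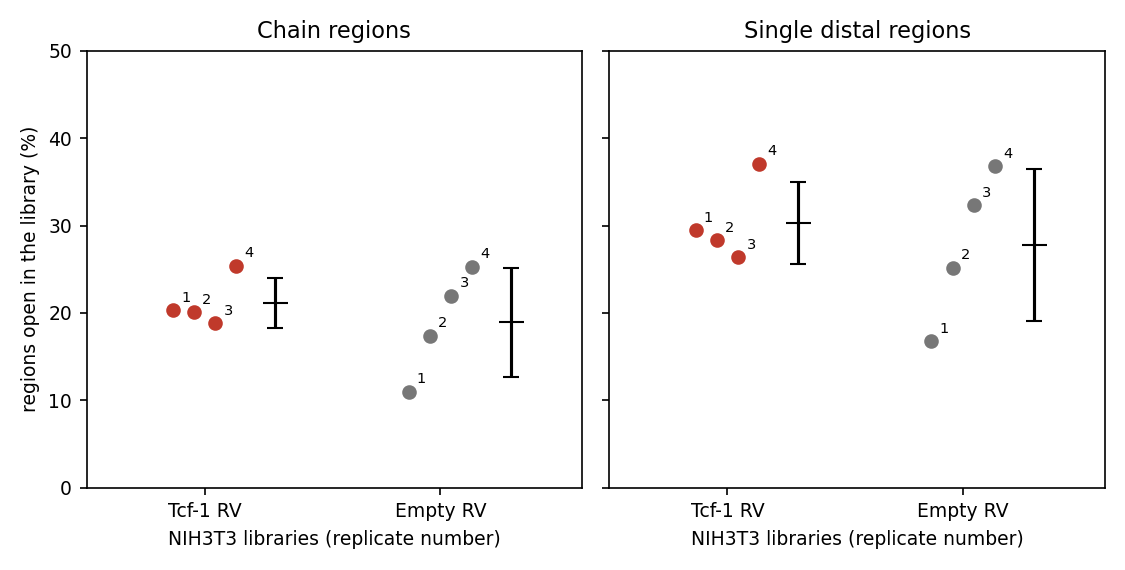
Points give the percent of chain regions (left) and single distal regions (right) open in each NIH3T3 library, numbered by replicate, with Tcf-1 RV in red and Empty RV in grey; black marks are the mean and SD of 4 libraries. The arms overlap in both panels, and chain regions lie below single regions, at 21.2% against 30.3% on average with Tcf-1 RV and 18.9% against 27.8% with Empty RV.

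A gain in fibroblasts, open in 4 of 4 Tcf-1 RV lists and 0 of 4 Empty RV lists, was found at 1.08% of all NIH3T3 regions. Of the thymocyte regions, most of them closed in NIH3T3 cells, it was found at 3 of 1762 in chains and at 13 of all 13240 distal ones. The 3 chain regions, named after their values were seen, lay over Abi2 (chr1:60416759-60417200), on chromosome 8 (chr8:36028264-36028815) and on chromosome 18. Each held a Tcf-1 summit, and each was lost in KO thymocytes within a chain that lost 2 of 3 regions. The reverse pattern, at 0.110% of NIH3T3 regions, was found at 0 chain regions.

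Tcf-1 summits of NIH3T3 cells fell in 115 chain regions (6.53%), against 7.88% of distal regions outside chains. Of those 115, 66 were lost (57.4%, 48.3% to 66%), against 66.6% of chain regions with no summit (64.3% to 68.8%). The spans held 360 of the 40562 summits, 120 of them in chain regions, and 208 chains held at least 1 in their span.

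Repressive islands of NIH3T3 cells crossed a minority of the chains. Islands of H3K27me3 called in both replicates covered 13.2% of the chain spans. In the 56 chains covered over more than 50% of their span, 65.3% of 190 regions were lost, against 66.9% of 1190 in chains that no such island touched. Of the chains at listed genes, those most covered were at Dntt (94.2% of the span), Cd247 (first, 91.9%), Ikzf1 (second, 90%) and nearest Tcf7 (87.1%). Islands of H3K9me3 covered 5.87% of the spans. In the 20 chains covered over more than 50%, 69% of 71 regions were lost, against 66.3% of 1515 in untouched chains.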

How the data were processed

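Per the labels, ATAC-seq was made from sorted DP thymocytes and NIH3T3 cells, and ChIP-seq from NIH3T3 cells. The submitters' processing notes list Bowtie2 2.2.9 and MACS2 among the tools, without the file each was used for. The deposited lists hold peak, island or summit positions on GRCm38, and the ATAC-seq read depth is unknown. The Tcf-1 summit list is pooled over libraries, and its name gives a day tag of 2 and no retrovirus. Placed ATAC-seq peaks numbered 11171 and 12209 in KO, 23249 and 30985 in WT, 36583 to 62639 in Tcf-1 RV and 22778 to 58026 in Empty RV libraries. The 293 peaks on unplaced sequences were dropped.

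The members and gene lists were chosen with earlier results of these data known. Genes and promoters came from RefSeq tables of GRCm38.p6. Chains named in the text are the 12 with most regions, the 10 with most regions among those wholly lost and among those with none lost, and chains at listed genes. The chain of 1 listed gene is not reported here. Shares have Wilson 95% intervals. Tcf-1 RV and Empty RV libraries were compared by the exact permutation test (two-sided), adjusted by Benjamini and Hochberg over 4 tests. Same-numbered libraries deviated together across regions (r = 0.187, 0.189, 0.125 and 0.260), as did libraries of unlike number within a day tag (0.194, 0.0722, 0.0648 and 0.0809) but not across tags (-0.243 to -0.0895). Since every same-numbered r was over 0.1, the numbers were treated as pairs in an alternative sign-flip test. At the day 2 tag this cut does not separate the numbers from the tag, since 1 couple of unlike number had r = 0.194. The other couples of unlike number within a tag were below 0.1. Python 3.11.15, pandas 2.3.3 and scipy 1.17.1 were used, and chaining and the permutation test were tested on simulated data.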

Additional observations from a re-analysis of the deposited data

How the results depend on the processing

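The number and size of chains followed the rule closely. A gap of at most 5 kb left 93 chains with 289 regions (29 wholly lost, 2 with none lost), and a gap of at most 25 kb gave 1044 chains with 3995 regions (240 and 32). Chains of 4 or more numbered 158 with 700 regions (27 and 3), and chains of 5 or more numbered 47 with 256 regions (6 and 1). Requiring a peak over at least 50% of a region gave a loss of 73.7% of chain regions and 72.5% of single regions, with 7 chains that lost none. Where absence needed no KO peak within 1 kb, 61.6% of chain regions were lost and 35 chains lost none. When DP lists were cut to their widest peaks at equal length, 12 chains with 36 regions were left, 27.8% of chain and 30.1% of single regions were lost, and 0 chains lost every region and 4 none; the cause was not tested. Leaving out promoter regions, chosen after seeing the data, gave 68.3% for chain and 70.2% for single regions.

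Leaving out 1 DP library at a time gave 512 to 1253 chains, 1763 to 4571 regions, 67% to 76.2% of chain regions lost, 66.7% to 76.4% of single regions lost, 154 to 483 chains wholly lost and 5 to 22 with none lost. Without WT replicate 1 there were 1253 chains, with 4571 regions, 483 wholly lost and 12 with none lost. Without KO replicate 2, 202 chains were wholly lost and 5 had none lost. The chain share minus the single share was 0.901 points by the rule, and below 0 without WT replicate 1 (-0.561), for distal beyond 2.5 kb (-0.563), without promoter regions (-1.87), with the widest peaks (-2.31) and with the 1 kb margin (-2.86).

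No NIH3T3 comparison had an adjusted p below 0.05 in any tested setting, but most settings could not have given one. With 1 library left out, or with the sign-flip test, the smallest possible p is itself above 0.05. Those settings therefore show only how the size and sign of the difference moved. The Tcf-1 RV minus Empty RV difference ranged, leaving out 1 library at a time, from -0.378 to 4.41 points for chain regions, -1.14 to 5.54 for single regions, -1.14 to 0.758 for chain minus single and -0.0702 to -0.0159 percent for peaks in spans. It reversed without Empty RV replicate 1 for chain (-0.378), single (-1.14) and chain minus single regions (0.758), and for the last also without Empty RV replicate 2 (0.0792) and without Tcf-1 RV replicate 4 (0.583). With the widest peaks at equal list length it was 0.0142 points for chain regions (exact permutation p = 1.00) and -0.0132 percent for peaks in spans, and it reversed for single regions (-1.05) and chain minus single (1.06). Within the day 4 tag it reversed for chain (-1.53), single (-2.81), chain minus single (1.28) and peaks in spans (0.00982). With the replicate block (exact sign-flip test on 4 pairs, smallest possible p 0.125) the values were 2.27, 2.53, -0.262 and -0.0393, with p = 0.625 for the first 3 and 0.375 for peaks in spans.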

Other observations

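Beyond the genes above, several other genes carried 2 chains, named here after their values were seen. Itpkb, a kinase of inositol phosphates needed for thymocyte selection, had 7 of 10 regions lost. Tnfrsf1b and Tnfrsf8, members of the TNF receptor superfamily, had 7 of 8 and 7 of 9 lost, and Hivep2, a zinc-finger gene, had 2 of 6. Each of these sums runs over the chains of 1 gene.

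By chromosome, 9.96% to 16.5% of distal regions were in chains on the autosomes and 5.32% on the X chromosome, which had 5 chains. The percentage of chain regions lost ran from 55.2% on chromosome 14 to 76.7% on chromosome 12.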
